A study of Mus musculus with 4 samples.

Results

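The genes described are 10 markers of liver macrophages, 5 of resident Kupffer cells (Clec4f, Timd4, Vsig4, Cd5l and Marco) and 5 of recruited or activated macrophages (Cd14, Trem2, Gpnmb, Mpeg1 and Lyz2). They were taken by name from the 18194 genes that had at least 1 probe set with a single symbol, and all 10 were measured. Of these genes 11651 were called expressed, which means a mean level over the arrays of at least 4.855 on the log2 scale, the median over all probe sets. All 10 markers were among them. Gene expression was measured with an Affymetrix mouse array in livers of mice aged 10 months. The 4 groups were mice on a control diet, mice on a diet with 0.2% cholic acid (CA), mice treated with diethylnitrosamine (DEN) and then given the control diet, and mice treated with DEN and then given the CA diet. DEN is a carcinogen that initiates liver tumours in mice, and cholic acid is a primary bile acid. Per group, 1 array was hybridised with a pool of 3 to 5 livers, so there was no replicate within a group, no test was made and the spread among mice is unknown. The sources used here do not give the strain and sex of the mice or the share of tumour tissue in each pool. Below, levels on the 4 arrays are given in the order control, CA, DEN alone and DEN plus CA.

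Kupffer cells are macrophages that settle in the liver before birth, line the sinusoids and clear particles, microbes and lipids from portal blood. They carry a set of surface and secreted proteins that other macrophages largely lack. When the liver is injured or tumours grow, monocytes from the blood enter it and become macrophages that at first lack this set, and later may acquire part of it. Whole liver was measured here, so more or fewer macrophages and more or less RNA of a gene per macrophage cannot be told apart.

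Levels are RMA values on the log2 scale, and a difference of 1 is 2-fold. Levels of different genes come from different probes and are not compared with each other. To show part of how far technical values move, 18 probe sets read hybridization controls, RNAs added in the same amount to each array. Such controls do not cover the steps before hybridization, such as RNA isolation and pooling. These differed by at most 0.30 between the diets without DEN and by 0.27 after DEN, by 0.20 for DEN against no DEN when the diet was the control one and by 0.37 when it was CA, and by 0.18 for both treatments against neither. The 7 measured hepatocyte markers of 8 had median differences of 0.02, 0.01, -0.05 and 0.01 in the first 4 of these comparisons, with albumin (Alb) between 14.74 and 14.82. Of the 7, only Tat, an aminotransferase gene, was 2-fold different in any of them, at 12.26, 12.22, 11.81 and 10.57.

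The resident and the recruited markers were ordered differently over the 4 arrays. For all 5 resident markers, both CA arrays were above both control diet arrays, an order held by 9.94% of expressed genes and by 0 of the 5 recruited markers. For all 5 recruited or activated markers, both DEN arrays were above both arrays without DEN, an order held by 34.3% of expressed genes and by 0 of the 5 resident markers. A gene can hold only 1 of these orders. For Trem2 and Timd4 the levels behind them lay close to the level limit, and for Trem2 the second order did not hold on its other probe set. Some gaps were narrow. The first order of Cd5l rests on 10.41 with CA against 10.30 with DEN alone. On the other probe set of Marco it rests on 5.24 with DEN plus CA against 5.18 on the control array.

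**Figure D1:**
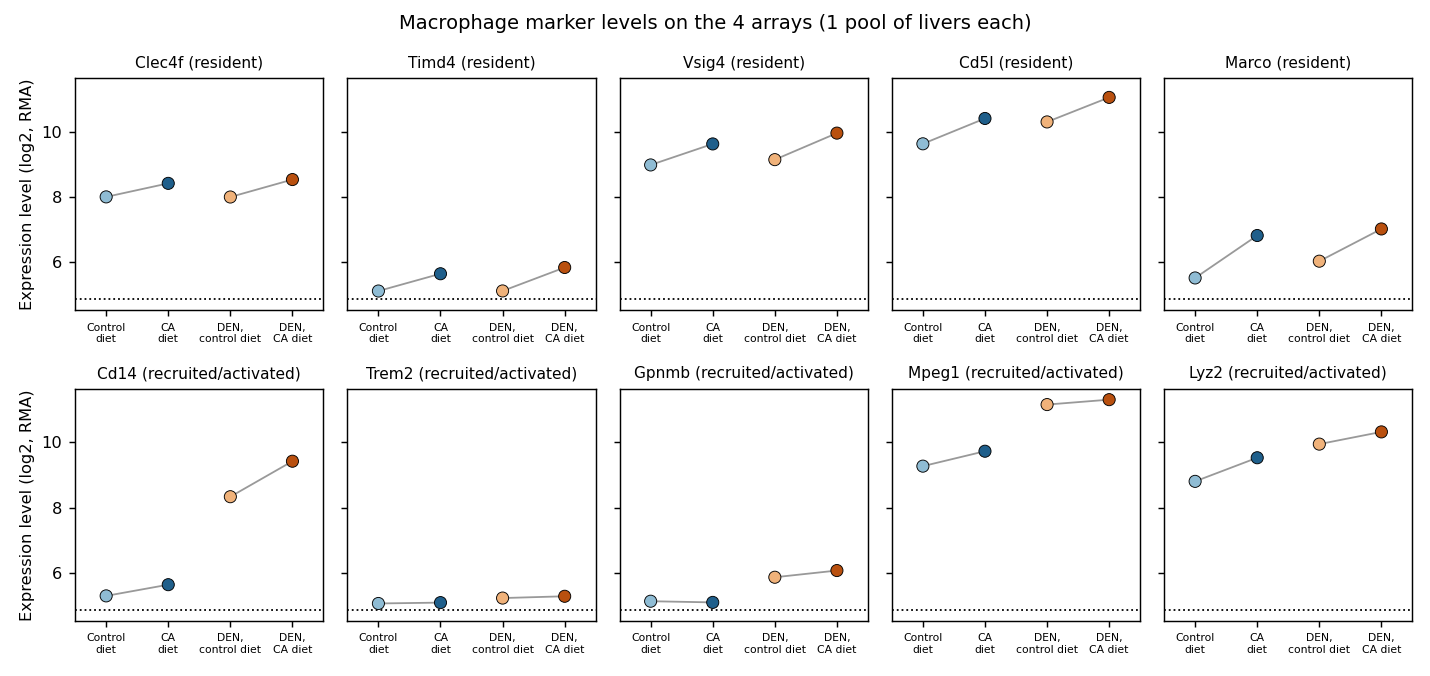
Level of each of the 10 markers (vertical axis, log2 RMA value) on the 4 arrays, 1 point for each pool of livers, with grey lines joining the control diet and the CA diet of mice with the same DEN status. The dotted line is the level limit of 4.855. In the upper row both CA points lie above both control diet points, and in the lower row both DEN points lie above both points without DEN.

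Promoters are shown for the markers whose 250 bases before the transcription start held a word for a macrophage transcription factor. RefSeq promoters (GRCm38.p6) were given for 9 of the 10 markers. The words searched on both strands were GAGGAAG, for PU.1, the factor required for macrophages, TGACTCA, for AP-1, CACGTG, the E-box read by MITF and TFE factors, and TGCTGAC, a word read by MAF factors. GAGGAAG or its reverse complement stood in 3 of the 9 windows, those of Cd5l, Marco and Trem2, against 10.6% of 32851 promoter windows of the same length. TGCTGAC stood in 1, that of Timd4, against 3.81%, while TGACTCA (4.46% of all windows) and CACGTG (6.02%) stood in none. A match is a description of the letters and no evidence of binding. The windows run 5′ to 3′ on the strand of the gene, and the capitals mark the word found. They lie at chr3:87357631-87357880 on the plus strand (Cd5l), chr1:120505025-120505274 on the minus strand (Marco), chr17:48346151-48346400 on the plus strand (Trem2) and chr11:46810549-46810798 on the plus strand (Timd4).
Cd5l: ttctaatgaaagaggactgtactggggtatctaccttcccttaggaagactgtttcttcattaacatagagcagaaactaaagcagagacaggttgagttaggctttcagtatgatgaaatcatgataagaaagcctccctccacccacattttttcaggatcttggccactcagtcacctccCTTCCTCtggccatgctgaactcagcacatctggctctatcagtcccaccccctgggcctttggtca
Marco: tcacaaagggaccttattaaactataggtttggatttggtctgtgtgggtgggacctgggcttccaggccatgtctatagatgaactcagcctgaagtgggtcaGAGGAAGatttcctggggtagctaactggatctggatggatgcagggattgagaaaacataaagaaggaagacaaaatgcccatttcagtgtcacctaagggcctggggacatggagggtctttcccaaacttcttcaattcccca
Trem2: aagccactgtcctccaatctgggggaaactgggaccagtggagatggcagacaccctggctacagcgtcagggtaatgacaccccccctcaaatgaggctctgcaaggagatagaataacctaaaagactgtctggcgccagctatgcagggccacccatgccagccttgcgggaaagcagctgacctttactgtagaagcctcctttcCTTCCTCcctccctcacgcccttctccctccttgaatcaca
Timd4: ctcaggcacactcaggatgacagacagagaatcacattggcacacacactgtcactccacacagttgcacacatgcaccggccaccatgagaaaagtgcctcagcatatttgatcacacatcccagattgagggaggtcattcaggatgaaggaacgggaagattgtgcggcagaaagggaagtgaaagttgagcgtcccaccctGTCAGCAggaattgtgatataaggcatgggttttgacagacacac
The PU.1 word lay 67 to 61 bases before the start in Cd5l and 41 to 35 bases before it in Trem2, in both on the opposite strand, and 146 to 140 bases before it in Marco on the strand of the gene. The MAF word of Timd4 lay 45 to 39 bases before the start, on the opposite strand.

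Clec4f, a C-type lectin that in mice is restricted to Kupffer cells and binds galactose-bearing glycans, stood at 8.0 on the control array, 8.42 on the CA array, 8.0 with DEN alone and 8.53 with DEN plus CA. The arrays thus fell into a lower pair with the control diet and a higher pair with CA, whatever the DEN status. The CA diet went with a level 1.33-fold as high without DEN and 1.45-fold after DEN. The DEN differences were -0.0035 without CA and 0.12 with it, both smaller than the largest difference of a hybridization control.

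Timd4, the TIM-4 receptor for phosphatidylserine on dying cells and a marker of Kupffer cells of embryonic origin, had the same arrangement. Its levels were 5.11, 5.64, 5.11 and 5.83. The diet differences were 0.53 without DEN and 0.72 after DEN, and the DEN differences 0.0020 and 0.19. Clec4f and Timd4 were the closest pair among the 45 pairs of markers when each profile was centred on its own mean (Euclidean distance 0.16). Timd4 lay close to the level limit on every array, where differences on such arrays can be compressed.

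Vsig4, the complement receptor CRIg that captures opsonised bacteria, stood at 8.98, 9.63, 9.14 and 9.96. CA again divided the arrays, with diet differences of 0.64 and 0.81 and DEN differences of 0.16 and 0.33.

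Cd5l, a secreted scavenger receptor protein also called AIM that supports macrophage survival, was at 9.63, 10.41, 10.30 and 11.05. Its DEN differences were larger than those of the 3 receptors above. The diet differences were 0.78 and 0.75 and the DEN differences 0.67 and 0.65, so that the differences of each treatment were nearly alike at both levels of the other. Cd5l was 2.68-fold as high with both treatments as with neither.

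Marco, a scavenger receptor for bacteria and particles that is induced by inflammatory signals, had the largest diet difference without DEN among the 10 markers. It stood at 5.51, 6.81, 6.03 and 7.02. The level on the CA diet was 2.47-fold that on the control diet without DEN and 1.98-fold after DEN. The other probe set of Marco had smaller diet differences of the same sign, 0.49 and 0.39, from levels between 4.85 and 5.68. Its DEN differences had the opposite sign to those of the probe set used, -0.33 and -0.44 against 0.51 and 0.20, so no direction with DEN can be given for Marco.

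**Figure D2:**
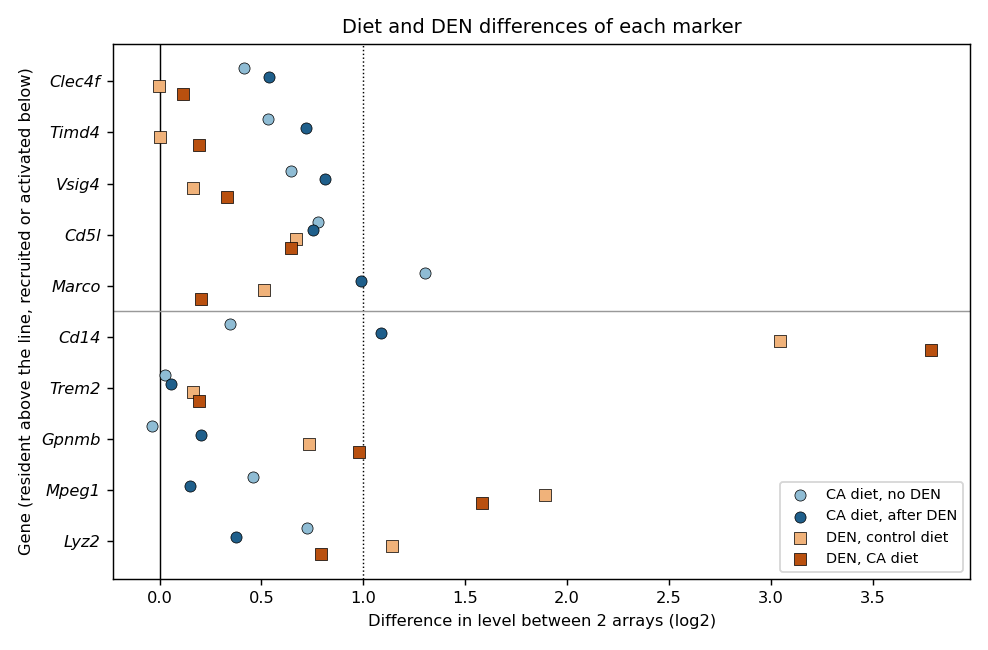
Difference between 2 arrays (horizontal axis, log2) for each marker (vertical axis), with circles for the CA diet against the control diet and squares for DEN against no DEN; the dotted line marks 2-fold. The circles of the resident markers lie between 0.42 and 1.30, and the squares of Cd14 lie at 3.04 and 3.79, apart from all other points.

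Among the recruited or activated markers Cd14 had the largest differences. Cd14 is the co-receptor that hands bacterial lipopolysaccharide to TLR4, and it is known from monocytes, activated macrophages and neutrophils and, under inflammatory stimuli, from hepatocytes. Its levels were 5.29, 5.63, 8.33 and 9.42. Both DEN arrays stood far above the others, by 8.24-fold on the control diet and 13.8-fold on the CA diet. Within the DEN mice the CA array was 2.13-fold above the control diet array, while without DEN it was 1.27-fold above it. The diet difference after DEN exceeded that without DEN by 0.75, more than the 0.57 reached by any hybridization control and a size passed upwards by few genes (2.45% of expressed genes lay above 0.57). The levels without DEN lay close to the level limit, and the difference between both diet effects was not tested.

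Mpeg1, the gene of the pore-forming protein perforin-2 of phagocytes, was at 9.27, 9.73, 11.16 and 11.31. DEN divided the arrays, with levels 3.70-fold as high on the control diet and 2.99-fold on the CA diet. The diet difference was 0.46 without DEN and 0.15 after DEN.

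Lyz2, lysozyme M of monocytes, macrophages and granulocytes, was intermediate. It stood at 8.80, 9.53, 9.95 and 10.32. The DEN differences were 1.14 and 0.79, and the diet differences 0.72 and 0.37. Either treatment alone thus went with a higher level, and the level with both was 2.86-fold that with neither.

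Gpnmb, a membrane glycoprotein of lipid-laden and scar-associated macrophages that also occurs in other cells, was at 5.13, 5.09, 5.86 and 6.07. The DEN differences of 0.74 and 0.98 stayed under 2-fold, and the diet differences were -0.036 and 0.21. Its other probe set stayed between 2.37 and 2.75, far under the level limit.

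Trem2, the lipid-sensing receptor of macrophages in injured and fatty liver, gave almost no difference. It was at 5.06, 5.08, 5.22 and 5.28. The other probe set stood at 5.08, 5.03, 5.15 and 5.04 in the same order. Both lay within 0.5 of the level limit on every array, and the pair of probe sets agreed in sign for the DEN differences (0.17 and 0.19 against 0.07 and 0.01) but not for the diet.

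**Figure D3:**
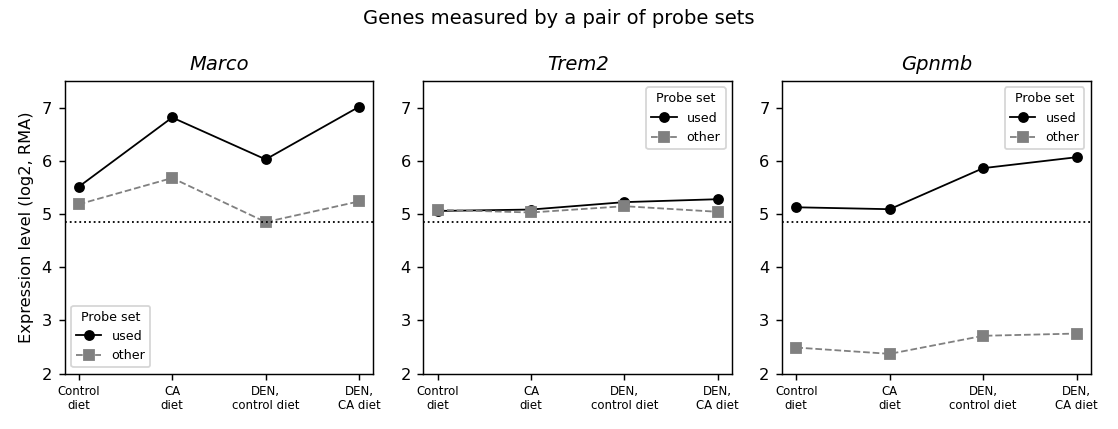
Levels (vertical axis, log2 RMA value) on the 4 arrays for the 3 markers with a pair of probe sets, with black circles for the probe set used and grey squares for the other; the dotted line is the level limit of 4.855. Both lines of Marco are higher with CA than with the control diet at the same DEN status but part after DEN, those of Trem2 lie together near the limit, and the other probe set of Gpnmb lies far under it.

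Counted at 2-fold, up to 5 of the 10 markers were higher in a comparison. Of the 10, 0 were lower by 2-fold in any of the 5 comparisons, where 0.592% (CA without DEN), 0.472% (CA after DEN), 0.901% (DEN, control diet), 1.75% (DEN, CA diet) and 2.2% (both treatments) of expressed genes were. For the CA diet without DEN it was 1 of 10, Marco, against 0.661% of expressed genes, and for the CA diet after DEN 1 of 10, Cd14, against 0.266%. For DEN on the control diet 3 of 10 passed (Cd14, Mpeg1 and Lyz2), against 5.12% of expressed genes, and on the CA diet 2 of 10 (Cd14 and Mpeg1), against 4.75%. For DEN with CA against neither treatment 5 of 10 passed, Cd5l and Marco of the resident and Cd14, Mpeg1 and Lyz2 of the recruited markers, against 5.97%. The count for Marco rests on the probe set used. With the mean of both probe sets its diet differences were 0.90 and 0.69, which left 0 markers at 2-fold without DEN. For both treatments against neither, Marco stood at 0.78 with this mean and at 0.05 on its other probe set, so that 4 of 10 passed with the mean.

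The medians gave the same contrast between the classes, though it was small for the CA diet without DEN. The resident markers had a median diet difference of 0.65 without DEN (range 0.42 to 1.30) and 0.75 after DEN (range 0.54 to 0.99), while the median over all expressed genes was 0.015 and -0.022. All 5 exceeded the largest hybridization control difference in both, against 10.5% and 8.44% of expressed genes. The recruited markers had medians of 0.34 and 0.21 in these comparisons, with 3 and 2 of 5 above the controls. Without DEN the gap between the class medians was 0.301, no more than the largest hybridization control difference of 0.305. The classes also overlapped for the diet. Without DEN Lyz2 (0.72) lay above Clec4f, Timd4 and Vsig4, and after DEN Cd14 (1.09) lay above all 5 resident markers. The lowest recruited markers without DEN, Trem2 (0.03) and Gpnmb (-0.04), had levels near the level limit. For DEN the order of the classes was the other way round, with medians of 1.14 and 0.98 for the recruited markers and of 0.16 and 0.20 for the resident ones, on the control and the CA diet. Of the recruited markers 4 of 5 exceeded the controls on each diet, against 31.3% and 17.9% of expressed genes, and of the resident markers 2 (Cd5l and Marco) and 1 (Cd5l). Marco also set the resident median of 0.20, and its DEN differences had the opposite sign on its other probe set. The comparisons of CA without DEN and of DEN on the control diet share the control array, and those after DEN and on the CA diet share the array with both treatments. The array with DEN alone enters the diet difference after DEN and the DEN difference on the control diet with opposite signs. So does the array with CA alone in the diet difference without DEN and the DEN difference on the CA diet. A deviation of either array would shift a diet and a DEN difference in opposite directions.

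With every array centred on the median of its expressed genes, the scaling lowered every DEN difference on the control diet by 0.16 and on the CA diet by 0.081. On this scale Clec4f and Timd4 stood at -0.17 and -0.16 for DEN on the control diet and Vsig4 at -0.0002, so the sign of this difference depends on the scaling for Timd4 and Vsig4, and Lyz2 stood at 0.98, just under 2-fold. The signs of the diet differences of all 5 resident markers held under every alternative tried, and so did the signs of both DEN differences of Cd14, Mpeg1, Lyz2 and Gpnmb.

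Other genes of macrophages were taken from lists. Of 14 further genes known from Kupffer cells 12 were expressed, with medians of 0.41 and 0.45 for the diet and of -0.07 and 0.20 for DEN. For the diet 0 of the 12 were 2-fold different either way in either setting. For DEN 0 of the 12 were 2-fold different on the control diet, and 1 was lower by as much on the CA diet. This was Cd163, the haemoglobin scavenger receptor, at 7.08 and 7.81 without DEN on the control and CA diet and at 6.41 and 6.80 after it. Hmox1, haem oxygenase, which hepatocytes also express, stood at 5.42, 6.13, 6.40 and 6.91 on the 4 arrays. Il18bp, the decoy receptor of interleukin 18, was 2.60-fold as high with both treatments as with neither, and Cfp, properdin, stood at 7.56 against 6.56.

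Of 18 genes shared by most macrophages 17 were expressed, and their medians were above 0 for both treatments, 0.54 and 0.36 for the diet and 0.85 and 0.81 for DEN. For DEN on the control diet 7 of the 17 were higher by 2-fold or more, against 5.12% of expressed genes, and 0 were lower by as much. For DEN on the CA diet 3 of the 17 were higher, against 4.75%, and 0 were lower. Cybb, the NADPH oxidase subunit of the oxidative burst, was at 6.72, 7.34, 7.94 and 9.22. Its diet difference after DEN, 1.28, was the only one of the 17 past 2-fold. Cd68, a lysosomal glycoprotein, was 2.54-fold as high after DEN on the control diet, Ctss, the cysteine protease cathepsin S, 2.30-fold and the pan-leukocyte phosphatase gene Ptprc 2.68-fold. With DEN on the CA diet Cd68 was 2.10-fold, Ctss 1.85-fold and Ptprc 1.97-fold as high. Set against the median of these 17 genes on the same arrays, all 5 resident markers lay below it for DEN, by unlike amounts. On the control diet Clec4f, Timd4, Vsig4, Cd5l and Marco lay 0.86, 0.85, 0.69, 0.18 and 0.34 below it. On the CA diet they lay 0.69, 0.62, 0.48, 0.17 and 0.61 below it in the same order. Of the recruited markers, Cd14 lay 2.19 and 2.98 above it and Mpeg1 1.04 and 0.77 above it. The other 3 did not stand clearly above it, with Lyz2 at 0.29 and -0.02 from it, Gpnmb at -0.12 and 0.17 and Trem2 at -0.69 and -0.62. For the CA diet without DEN, 4 of the 5 resident markers lay within 0.25 of that median, and Marco 0.76 above it. After DEN only Clec4f lay that close for the diet (0.18), while Timd4, Vsig4, Cd5l and Marco lay 0.36, 0.45, 0.39 and 0.63 above it. The values of Marco are those of the probe set used. On its other probe set the diet differences of 0.49 without DEN and 0.39 after it were near the medians of 0.54 and 0.36.

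Genes of the pathways in which single markers act were also examined. TREM2 signals through the adaptor TYROBP, whose gene Tyrobp stood at 7.75, 8.44, 8.93 and 9.31 on the 4 arrays. Of the 6 expressed genes of 8 in that list it alone passed 2-fold for DEN on the control diet (median 0.02). For DEN on the CA diet 0 passed (median 0.23), with Tyrobp at 1.83-fold, and 0 did so for the diet itself. Among 9 expressed genes of 13 in the CD14 and TLR4 pathway, Itgb2, the beta 2 integrin chain, was 2.74-fold as high after DEN on the control diet and 1.72-fold on the CA diet. Ly96, the MD-2 partner of TLR4, was 1.84-fold and 1.59-fold as high on these diets and Tlr2 1.59-fold and 1.53-fold. Lbp, which delivers lipopolysaccharide to CD14, differed by 0.23 and 0.03 between DEN and no DEN and by 0.63 and 0.43 between the diets. Tlr4 itself had a mean under the level limit, with levels of 4.61, 4.68, 4.63 and 5.06 on the 4 arrays. Of the CSF1 receptor axis and recruiting chemokines 7 of 13 were expressed. The CSF1 receptor gene Csf1r differed by 0.63 and 0.46 with DEN and by 0.52 and 0.36 with the diet, and its ligand gene Csf1 by -0.14, -0.09, -0.09 and -0.04. The monocyte chemokine gene Ccl2 stayed between 5.46 and 5.71, and Ccr2, its receptor, between 5.48 and 5.96, although a further probe set of Ccr2 was 1.12 higher with DEN alone than on the control array.

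Genes of lipid-associated macrophages, the state that Trem2 and Gpnmb mark, included several with large DEN differences. Of 13 expressed genes of 15, 6 were at least 2-fold higher with DEN on either diet (medians 0.58 and 0.79), against 5.12% and 4.75% of expressed genes. Lpl, lipoprotein lipase, was 8.85-fold as high on the control diet and 9.31-fold on the CA diet, and the tetraspanin gene Cd9 5.84-fold and 4.53-fold. Fabp5, a fatty acid binding protein gene, stood at 10.74, 8.76, 12.65 and 12.38. Mmp12, the macrophage elastase, which is largely specific to macrophages, was at 3.96, 5.14, 5.90 and 7.01 in the same order of arrays, and so was above the level limit on 3 of the 4. Lpl, Cd9 and Fabp5 are also expressed by epithelial and tumour cells. Of the monocyte genes 5 of 14 were expressed (median 0.33 and 0.18 with DEN), with Plac8 2.30-fold and 2.47-fold as high. Over all 11 measured monocyte genes, including those under the level limit, the medians with DEN were 0.61 and 0.40.

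**Figure D4:**
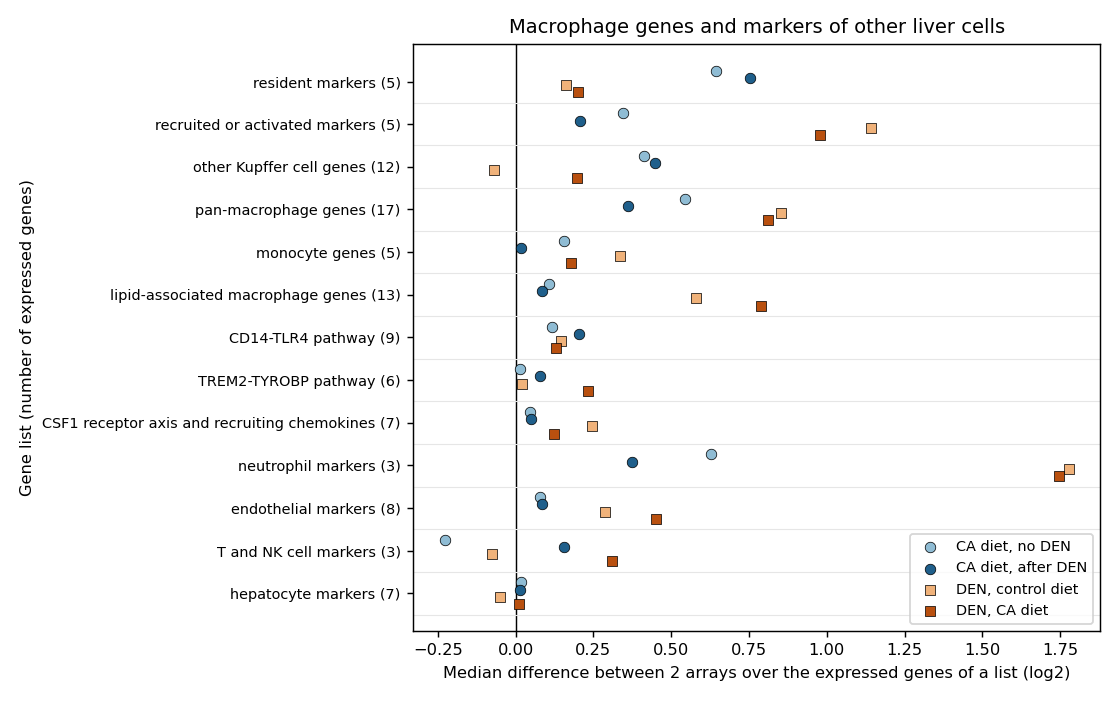
Median difference between 2 arrays (horizontal axis, log2) over the expressed genes of each list with at least 3 of them (vertical axis, number of genes in brackets), with circles for the CA diet and squares for DEN. The resident markers and further Kupffer cell genes have their circles at 0.41 to 0.75 and their squares at -0.07 to 0.20, whereas the recruited markers and shared macrophage genes have their squares at 0.81 to 1.14. The circles lie at 0.34 and 0.21 for the recruited markers and at 0.54 and 0.36 for the shared macrophage genes, without and after DEN.

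Markers of other cells that hold some of the same transcripts moved with DEN in part. Of 10 neutrophil markers 8 were measured and 3 expressed. S100a8 stood at 3.71, 4.82, 6.19 and 6.57 and S100a9 at 4.59, 5.22, 6.37 and 6.99 on the 4 arrays, and the neutrophil receptor gene Csf3r stayed between 6.56 and 6.68. S100a8 lay under the level limit on both arrays without DEN, and S100a9 on the control array. S100a8 thus counted as expressed only through the DEN arrays, which bears on the rise of the list with DEN. The summed linear level of the 3 was 135, 160, 258 and 323 in that order. The granule genes Mpo, Elane, Camp and Ngp and the receptor gene Cxcr2 had means under the level limit. Of the 9 endothelial markers 8 were expressed, with medians of 0.29 and 0.45 for DEN and 0.08 and 0.08 for the diet, and a summed linear level of 2168, 2300, 2555 and 3140. Among them Lyve1, a hyaluronan receptor gene, stood at 6.56, 6.76, 7.89 and 7.80. Of 6 cholangiocyte markers 5 were measured and 2 expressed, with a summed linear level of 69.3, 82.7, 107 and 151. Sox9, a transcription factor of biliary and progenitor cells, stood at 4.74, 5.11, 6.05 and 6.63. Epcam stayed between 5.36 and 5.71 on the probe set used, while a further probe set stood at 4.73, 5.12, 5.77 and 5.49. Krt19, Krt7 and Cftr had means under the level limit, with Krt19 at 4.21, 4.53, 4.94 and 4.83. The part of neutrophils, endothelial cells or cholangiocytes in the values of Cd14 and Lyz2 was not tested. Of the 8 dendritic cell, 5 B cell and 7 T and NK cell markers, 2, 1 and 3 were expressed, with summed linear levels of 68.5 to 74.7, 28.4 to 32.4 and 122 to 155 over the arrays. The T cell gene Cd3d stood at 5.13, 4.72, 5.49 and 5.83, and was 2.16-fold as high with DEN on the CA diet. With DEN on the control and the CA diet Cd3e differed by -0.23 and -0.26 and Cd8a by -0.07 and 0.31. With means under the level limit, Cd3g differed by 1.11 and 0.41, Nkg7 by 0.98 and 1.08 and Cd2 by 0.19 and -0.02.

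Likeness of profile was measured over the 4 arrays as the Euclidean distance between levels centred on each gene's own mean, for the 5 markers with a range of at least 1, against 11200 other expressed genes. Lyz2 lay nearest to Tyrobp (distance 0.06), a macrophage gene, then to the lipoprotein receptor gene Scarb1 (0.08) and to Lrg1 (0.09). Nearest to Cd14 was Ubd, the ubiquitin-like gene FAT10 (0.09), at 4.26, 4.66, 7.25 and 8.35 in the order used above, followed at some distance by Calml4 (0.46) and Lpl (0.47). Ubd and Calml4 lay under the level limit on both arrays without DEN. Marco was nearest to Bst2 (0.13), the interferon-induced tetherin gene, to Tmem141 (0.19) and to Socs3 (0.24), and Cd5l to the heat shock gene Hspa1a (0.13), to Samd9l (0.15) and to the protease gene Ctsc (0.18). Mpeg1 was nearest to Scn8a (0.03), Rbl1 (0.06) and Tceal9 (0.10), of which Scn8a and Rbl1 also lay under it there. With 4 arrays and so many genes, close profiles occur readily and carry no statement about shared cells.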

How the data were processed

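The deposited values were log2 levels of 45101 probe sets on 4 arrays. The authors ran RMA, with Partek 6.5 named as the software in the submitters' processing notes. This method removes background and aligns the distributions of the arrays, so a shift shared by most genes would be lost. Array medians lay between 4.843 and 4.865.

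Of the 34958 probe sets with 1 symbol in the platform annotation, a gene took the one with the highest 4-array mean. Differences of log2 levels were computed for 5 pairs of arrays (Python 3.11.15, pandas 2.3.3). With 1 array per group no test was made, and the number of arrays limits the precision. The steps were tested on simulated data.

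The markers, lists, motifs and alternatives were chosen with earlier results of these data known. Named genes are the markers, the 3 nearest profiles of a marker (predicted genes left out) and up to 4 expressed genes per list with the largest differences. Csf1, Ccl2, Alb and genes named as under the limit were added for their role. Alternatives were quantile normalization, median and loess centring, a threshold of 1.5-fold, a level filter at the upper quartile or none, other choices of probe set, and low levels raised to the limit.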

Additional observations from a re-analysis of the deposited data

Results flagged for a closer look

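The DEN difference of Clec4f had opposite signs on both diets, -0.0035 with the control diet and 0.117 with CA, and the diet difference of Gpnmb had opposite signs without DEN (-0.036) and after DEN (0.206). Each rests on 1 array per group, each lay within the largest difference of a hybridization control in its comparison, and neither contrast was tested.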

How the results depend on the processing

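Under 9 alternatives, 254 of 270 values of the 30 counts, medians and differences of diet effects stayed within 1.5 times (counts) or within the largest hybridization control difference (other values), and no 2-fold difference of a marker reversed. Many of the 270 values could not move. All 10 markers lay above the limit on every array, so dropping the filter or raising low levels to the limit changed none of them. The 1.5-fold threshold could change only counts, and the upper quartile filter could not change the differences of diet effects. The share that stayed is thus no measure of robustness. At a 1.5-fold threshold 4 and 5 markers were higher for the CA diet without and after DEN, 5 and 5 for DEN on the control and the CA diet, and 8 for both treatments against neither. Quantile normalization, median centring and loess centring each gave 2 markers for the CA diet after DEN in place of 1. With the filter at the upper quartile, which leaves out Marco, Timd4, Trem2 and Gpnmb, 0 markers were 2-fold higher on the CA diet without DEN, and the recruited markers had medians of 1.89 and 1.58 for DEN on the control and the CA diet and 2.04 for both treatments. With the mean over probe sets, 0 markers were 2-fold higher on the CA diet without DEN, the recruited median for DEN on the control diet was 1.52, and for both treatments against neither the resident and recruited medians were 0.78 and 1.78; in this setting Gpnmb no longer reached the level limit. Levels near the limit (Timd4, Trem2, Gpnmb) bound what could be seen. No paired analysis was possible because each group has 1 array.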
